A study of Mus musculus with 2 samples.

Results

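Cytosolic ribosomal protein genes encode the proteins of the large (Rpl genes and the stalk genes Rplp0, Rplp1 and Rplp2) and small (Rps genes and Rpsa) ribosomal subunits. They were chosen by symbol among the protein-coding gene rows, with the ribosomal S6 kinases left out. The rule used no measured value, although it was set with earlier results of these data known. It gave 84 genes of 21474 protein-coding rows, 52 for the large and 32 for the small subunit. Another 5 rows had a matching symbol but were annotated as pseudogenes and stayed outside the set.

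The RNA came from livers of mouse embryos of strain B6NCrl at embryonic day 11.5. Both libraries belong to 1 group with no treatment and no contrast. They are biological replicates 1 and 2, each a pool of male and female embryos, and the label of replicate 1 names 109 embryos. RNA above a size limit was extracted with the Ambion mirVana kit and spiked with control RNAs. An amount of 1 cell-equivalent entered each library, made by a SmartSeq protocol, which copies polyadenylated RNA into cDNA and amplifies it by PCR. The labels call the assay single-cell RNA-seq in one field and total RNA-seq in another, and the source is pooled tissue.

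A ribosome holds a single copy of nearly every ribosomal protein, the stalk proteins being an exception, so cells need these proteins in near-equal numbers. Many of the mRNAs start with a C followed by a run of pyrimidines, the terminal oligopyrimidine or TOP motif, through which growth signals control their translation. The mammalian genome also carries many retrocopies of these genes, mRNAs copied back into DNA without introns, and most are annotated as processed pseudogenes. Liver at this stage holds hepatoblasts, the precursors of hepatocytes, and large numbers of developing red cells, both fast-growing. Loss of an allele of certain ribosomal protein genes causes red cell failure (Diamond-Blackfan anaemia).

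Total expected counts were 33289699 in replicate 1 and 32607453 in replicate 2, and counting limited a row with no read to 3 reads, a CPM of 0.0901 and 0.092. These limits cover counting error only, because PCR copies are not independent molecules. The spike-ins took 5.83% and 7.68% of TPM, a relative abundance scaled for transcript length. All 8 hepatoblast and all 10 erythroid markers reached a TPM of 1 in each library. Macrophage and endothelial markers did so for 3 of 6 and 3 of 5. Mesenchymal markers did so for 5 of 5 and heart markers for 2 of 7, with heart markers Myl3 and Myh7 and macrophage marker Cd68 at 0 in both. In bulk RNA, fewer cells of a type and less RNA per cell cannot be told apart.

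The start of the annotated transcript is shown for 4 members that carry the TOP-like letters there. Each window holds 15 bases before and 15 bases from the RefSeq start (GRCm38.p6), 5′ to 3′ on the gene's strand. Capitals mark the run of C and T that begins at the start.
Rps18 (chr17:33955651-33955680, minus strand): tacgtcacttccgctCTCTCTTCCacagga
Rplp2 (chr7:141447636-141447665, plus strand): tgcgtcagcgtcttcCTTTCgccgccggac
Rpl38 (chr11:114668565-114668594, plus strand): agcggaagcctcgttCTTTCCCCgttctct
Rpl14 (chr9:120571502-120571531, plus strand): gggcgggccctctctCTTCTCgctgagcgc

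The promoter table held 64 of the members. A C followed by at least 4 letters of C or T stood at the annotated start of 13 of them (20.3%), against 3.01% of the 27025 genes in the table. Searching the gene's strand within 10 bases on either side of the start found such a run in 39 members (60.9%), against 34.4% of all genes. Annotated starts can miss the base where transcription begins, and a match in these letters is a description of sequence.

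The members were among the most abundant RNAs of the tissue. Their share of TPM was 10.04% in the first replicate and 10.46% in the second, or 10.25% ± 0.297 (SD, n = 2). By reads, the share was 5.64% ± 0.144, and the member rows are short. Their median length was 673 bases, against 1874 for other protein-coding genes of mean TPM 10 or more. The median member stood at 1125 and 1114 TPM. In both libraries, 81 of 84 members reached a TPM of 1, where 27.3% of all protein-coding rows did. A TPM of 1000 was reached in both libraries by 47 members, 26 of the large and 21 of the small subunit. Only 0.536% of protein-coding rows reached that level, 115 rows in all, so the members made up 47 of those 115.

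Among large subunit genes, Rpl41, which encodes a very short peptide, was highest at 3338 TPM in replicate 1 and 3919 in replicate 2. Rpl32 followed with 2447 and 2728 TPM. Rpl36 had 1855 and 2655 TPM, one of the wider gaps between libraries. The stalk is the flexible arm of the large subunit that recruits translation factors. Its base protein gene Rplp0 had 2255 and 2685 TPM. Rplp1 had 1814 and 1987 TPM, and Rplp2 had 1979 and 1901 TPM. Rplp1 and Rplp2 overlapped each other and stood below Rplp0 in both libraries, although a ribosome carries more copies of their proteins than of the Rplp0 protein.

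Among the highest small subunit genes, Rps19, the gene most often mutated in Diamond-Blackfan anaemia, had 2251 TPM in replicate 1 and 3180 in replicate 2. Rps18 had 2364 and 2720 TPM. Rps14, whose loss on a deleted chromosome arm in human myelodysplasia impairs red cell formation, had 2176 and 2336 TPM. Rps2 had 2293 and 2184 TPM. The range of Rps19 overlapped that of each of these, while both values of Rps14 and Rps2 lay below those of Rps18.

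The lowest detected large subunit genes were far below these. Rpl5, whose protein carries the ribosomal RNA of the central protuberance and binds Mdm2 when assembly fails, was listed at 91.8 and 35.0 TPM. Rpl27a was listed at 111 and 373 TPM, Rpl12 at 283 and 336, and Rpl37 at 279 and 409. The paralogue Rpl7l1 was listed at 171 and 161 TPM. In the small subunit the lowest were Rps23 (299 and 395 TPM), Rps27 (413 and 287), Rps12 (533 and 507), Rps7 (778 and 509) and Rps20 (699 and 864). Rps23 encodes a protein of the decoding centre. Ordered by mean TPM with paralogues left out, 6 of the 76 neighbouring pairs had values that did not overlap, so for the other pairs the order lay within the spread of the libraries.

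**Figure D1:**
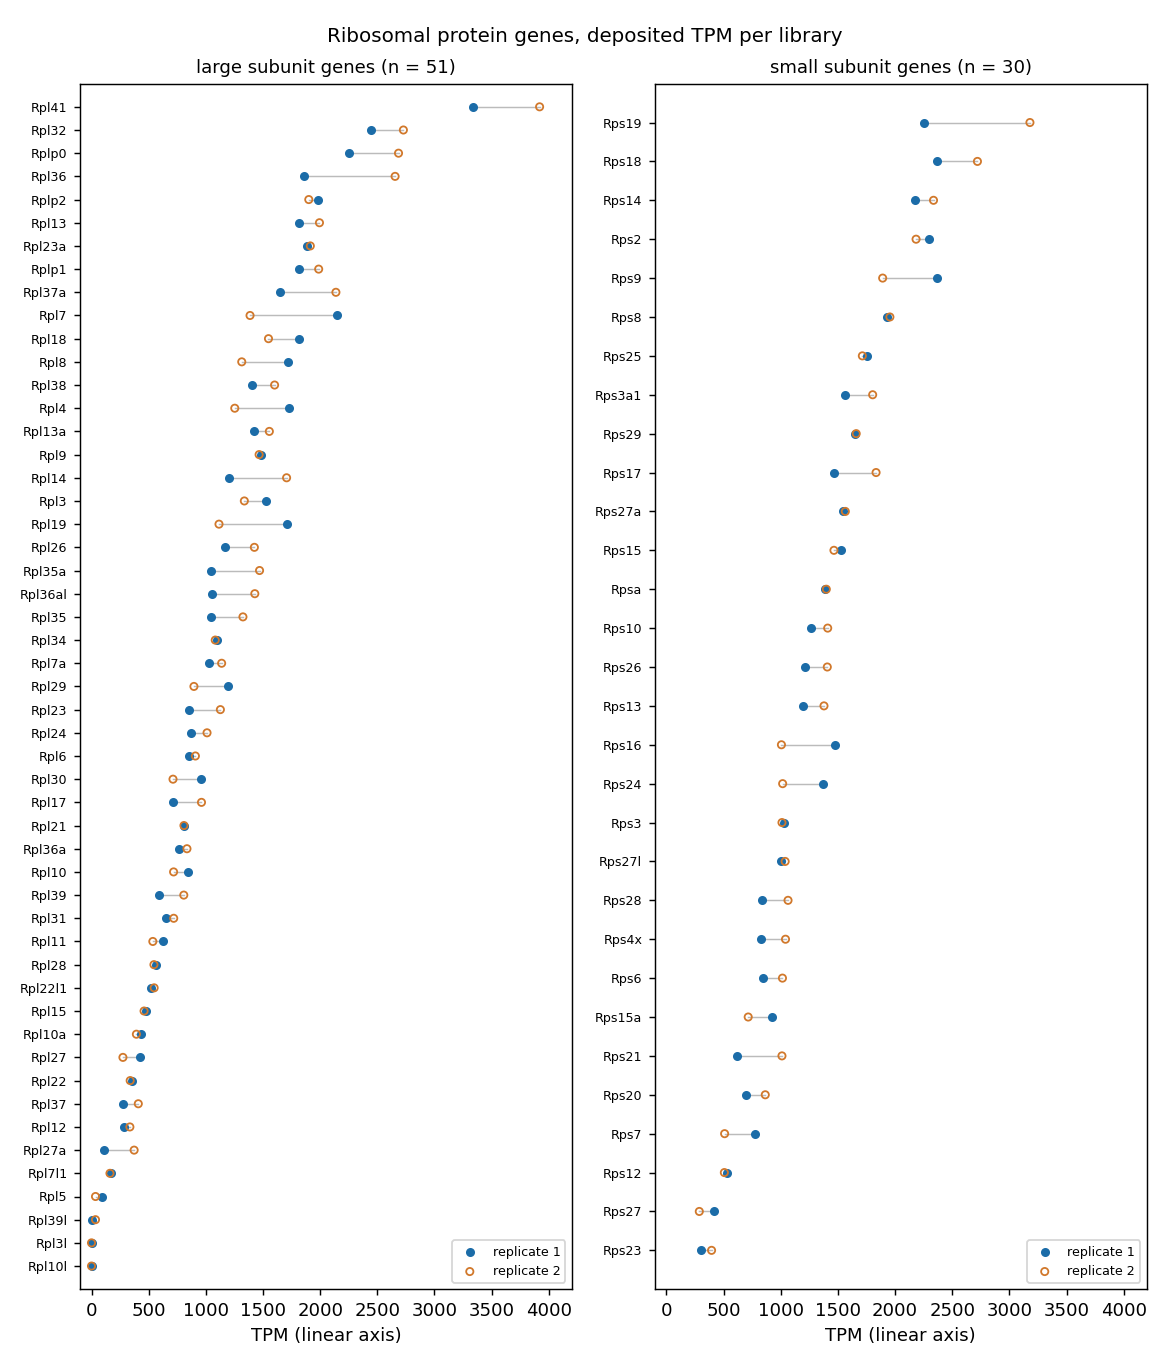
Deposited TPM (linear axis) of 51 large subunit genes (left) and 30 small subunit genes (right) in replicate 1 (filled) and replicate 2 (open), joined by a line and ordered by mean. Rpl41 reaches 3919 TPM, the medians lie at 1037 and 1097 (large) and 1378 and 1388 (small), and the lower end holds Rpl5, Rpl27a and the paralogues Rpl7l1, Rpl39l, Rpl3l and Rpl10l.

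The 2 subunits contribute one protein of nearly each kind per ribosome, and their genes were compared by median and by sum. The median large subunit gene had 1037 and 1097 TPM and the median small subunit gene 1378 and 1388 TPM. The ratio of medians was 0.753 and 0.790, or 0.772 ± 0.0267 (SD, n = 2), so both libraries had the large subunit median lower. Summed over genes, the large subunit took 5.62% and 5.91% of TPM and the small subunit 4.42% and 4.54%. The summed ratio was 1.29 ± 0.0200 (SD, n = 2), below the ratio of gene numbers, which was 1.625. Those numbers include paralogues and undetected genes: 49 of 52 large and 32 of 32 small subunit genes were detected in both libraries. Without paralogues the summed ratio was 1.273. The ratio of 1.625 does not apply to that smaller set, whose own ratio of gene numbers was not computed. The ratio of medians and the summed ratio rest on own rows only. Of the 15 members that share most of their level with near-identical rows, 11 belong to the large subunit, as do 49 of all 81 detected members. With the copies described next, the ratio of medians was 0.860 ± 0.0307 and the summed ratio 1.38 ± 0.0193 (SD, n = 2).

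Rows of near-identical sequence held a large part of the signal. A copy was any non-member row whose transcript matched a member's coding transcript on the same strand with at least 95% identity over at least 80% of the shorter sequence. There were 468 copies, and 98 of them were listed at 0 in both libraries. The copies summed to 26534 TPM (replicate 1) and 27561 TPM (replicate 2), or 26.4% ± 0.0558 of the members' own summed TPM (SD, n = 2). By reads they held 17.0% ± 0.227 of the members' reads. The gap between both figures comes with the copies' short rows, many of which span the reading frame alone. Members and copies together took 12.69% and 13.21% of TPM. Counting only rows named as ribosomal protein pseudogenes gave 9.94% of the members' TPM. Of the 32 copies whose mean TPM reached 100, 19 did not carry such a name.

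The signal in copies sat beside a limited set of members. In 53 members the own row held over 90% of the TPM of member and copies in both libraries, and 7 members had no copy. In 15 members the own row held under 50% in both libraries, and by reads this was so for 9. Of the 10 lowest members without paralogues, 9 were among those 15, which are part of 77 such members. Both the order and the own share use the TPM of the own row, so low rows tend to join this group by construction. Reads that fit several identical rows are divided among them by an estimate, so the level of each such row alone is uncertain. Whether the copies themselves were transcribed was not tested.

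The sequences of 3 such families are shown because their rows could not be separated by the letters of the reading frame, apart from the paralogue Rps27l. The first 60 bases are given from the GENCODE M21 transcripts on mm10, and capitals mark bases that differ from the member named first in each set.
Rpl5 (chromosome 5, plus strand): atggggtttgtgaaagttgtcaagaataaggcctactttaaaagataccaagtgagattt
Gm15500 (chr7:114705217-114706235, minus strand, transcribed processed pseudogene): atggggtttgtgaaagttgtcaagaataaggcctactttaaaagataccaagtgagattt
Rpl27a (chromosome 7, plus strand): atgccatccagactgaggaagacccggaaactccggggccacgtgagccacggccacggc
Gm7536 (chr3:24333068-24333511, plus strand, processed pseudogene): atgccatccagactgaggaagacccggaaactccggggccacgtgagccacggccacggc
Rps27 (chromosome 3, minus strand): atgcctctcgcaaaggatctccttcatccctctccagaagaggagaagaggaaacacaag
Rps27rt (chr9:114982366-114982739, minus strand, protein-coding): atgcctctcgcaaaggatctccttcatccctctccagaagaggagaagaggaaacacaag
Rps27l (chr9:66946086-66949516, plus strand, protein-coding): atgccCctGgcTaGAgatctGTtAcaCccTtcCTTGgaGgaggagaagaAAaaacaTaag

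Rpl5 and Gm15500 had 0 differences over the 894 bases of the reading frame. The Rpl5 row had 91.8 and 35.0 TPM while the Gm15500 row had 1318 and 1560 TPM. The own row therefore held 6.51% and 2.19% of the sum. The sum with all copies was 1412 and 1597 TPM, which placed Rpl5 at position 41 of 84, against 81 by its own row. The Gm15500 row held 35330 reads in replicate 1, against 4060 in the Rpl5 row.

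Rpl27a had an own share of 14.3% and 25.1%, and its copy Gm7536 had 665 and 1109 TPM. Both rows were higher in replicate 2, and the sum was 777 and 1484 TPM. Rps27 had an own share of 23.2% and 21.9%. Rps27rt, a protein-coding retrocopy with 0 differences over the 255 bases of the frame, had 1367 and 1027 TPM. Rps27 and its copies had 1780 and 1315 TPM, and the deposited row of Rps27 had a length of 255 bases, the reading frame alone. Its credibility bounds, the range the quantification gives for a level, spanned 31.8% of its TPM, the widest of any detected member. The next widest were those of Rpl5 (12.3%), Rps12 (10.7%), Rpl12 (8.45%) and Rpl27 (8.39%), each with an own share under 50%.

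Other members had the same pattern. Rps23, at 299 and 395 TPM, stood beside Rps23-ps1 at 1447 and 1805 TPM. Rpl15, at 474 and 460 TPM, stood beside Rpl15-ps3 at 1479 and 1509. Rpl27, at 424 and 275 TPM, stood beside Rpl27-ps3 (1091 and 740 TPM) and Gm11518 (1015 and 648). All 3 of those rows were lower in replicate 2. Rpl37 stood beside Rpl37rt (868 and 1103 TPM), Rpl12 beside Gm10275 (683 and 706) and Rps12 beside Rps12l1 (767 and 829). Rpl28 stood at 561 and 546 TPM beside Rpl28-ps1 at 949 and 1056, and Rpl31 at 651 and 719 TPM beside Rpl31-ps8 at 921 and 1090. A high member, Rps29, had the same: its own row had 1650 and 1660 TPM and its copy Gm14303 had 1788 and 1749, on a row of 171 bases that held 3806 reads in replicate 1 against 14191 in the Rps29 row.

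Summing copies made the members more alike. Without paralogues, the coefficient of variation across members was 53.4% and 57.1% for own rows and 41.3% and 44.7% with copies. With the copies' reads placed on the length of the member instead, it was 43.2% and 46.4%. The highest member exceeded the lowest 36.4-fold and 112-fold by own rows, and 10.4-fold and 12.6-fold with copies. Detected members under a TPM of 500 in both libraries numbered 11 by own rows and 2 with copies. Those 2 were Rpl22 and Rpl7l1, which share less than 1% of their level with copies.

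**Figure D2:**
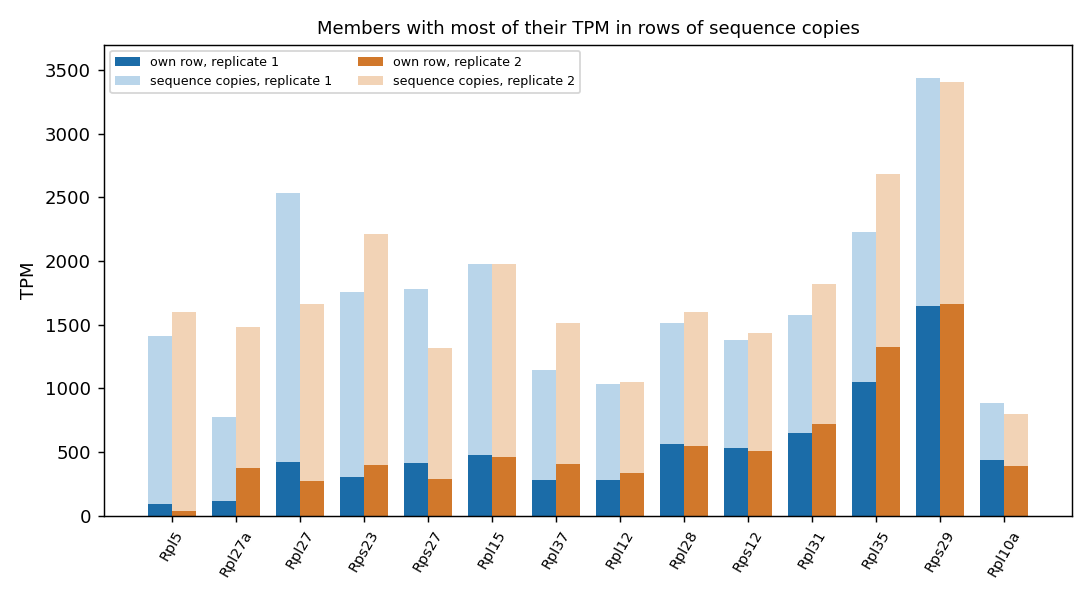
TPM (linear axis from 0) of 14 of the 15 members whose own row held under 50% of the TPM of member and copies in both libraries, with the own row (dark) and its copies (light) stacked for replicate 1 (blue) and replicate 2 (orange). Rpl5 at the left has 91.8 and 35.0 TPM in its own row under stacks of 1412 and 1597, and Rps29 has the highest stacks.

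Paralogues, here genes related to a ribosomal protein gene by name, were set against their partners as a share of the pair's TPM. This is a share of RNA, and whether each product takes its partner's place in the ribosome was not tested. Rpl22l1 had 523 and 548 TPM and Rpl22 had 351 and 338, so both values of Rpl22l1 were above both values of Rpl22. Its share was 60.8% ± 1.39 (SD, n = 2). The Rpl22 protein is known to restrain Rpl22l1 expression, and the pair has different roles in blood cell development. Rpl36al had 1050 and 1428 TPM and Rpl36a had 765 and 835, again without overlap. Its share was 60.5% ± 3.72. These reading frames differ enough for many reads to be assigned, at 39 of 321 bases and 11 of the first 60 (capitals).
Rpl36a (chromosome X, plus strand): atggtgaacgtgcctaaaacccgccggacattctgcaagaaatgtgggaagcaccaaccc
Rpl36al (chr12:69182731-69184083, minus strand): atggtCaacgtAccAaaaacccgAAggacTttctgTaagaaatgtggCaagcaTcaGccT

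Rps27l, a gene known as a target of the tumour suppressor p53, had 999 and 1038 TPM. Its frame differs from that of Rps27 at 61 of 255 bases, as the sequences above show in part. Against the Rps27 row alone its share was 70.8% and 78.3%, or 74.6% ± 5.33 (SD, n = 2). Against Rps27 with its copies the share was 36.0% and 44.1%, or 40.0% ± 5.78. Which of the pair was higher thus changed with the treatment of Rps27rt. Rpl7l1 held 8.89% ± 2.17 of its pair with Rpl7 (2150 and 1387 TPM). Rps4l, annotated as a transcribed processed pseudogene and so no member, had 289 and 168 TPM and held 19.9% ± 8.45 of its pair with Rps4x (830 and 1041 TPM).

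Of the paralogues known from muscle and testis, Rpl3l and Rpl10l were at 0 and Rpl39l was read in replicate 2. Rpl3l, a gene of heart and skeletal muscle, and Rpl10l, a testis gene, had no read in either library, which allows up to 3 reads in each by counting. Their partners stood at 1528 and 1337 TPM (Rpl3) and 843 and 718 TPM (Rpl10). Rpl39l, also known from testis, had 0 reads in replicate 1 and 599 reads, or 34.9 TPM, in replicate 2. Its share of the pair with Rpl39 was 0% and 4.14%.

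**Figure D3:**
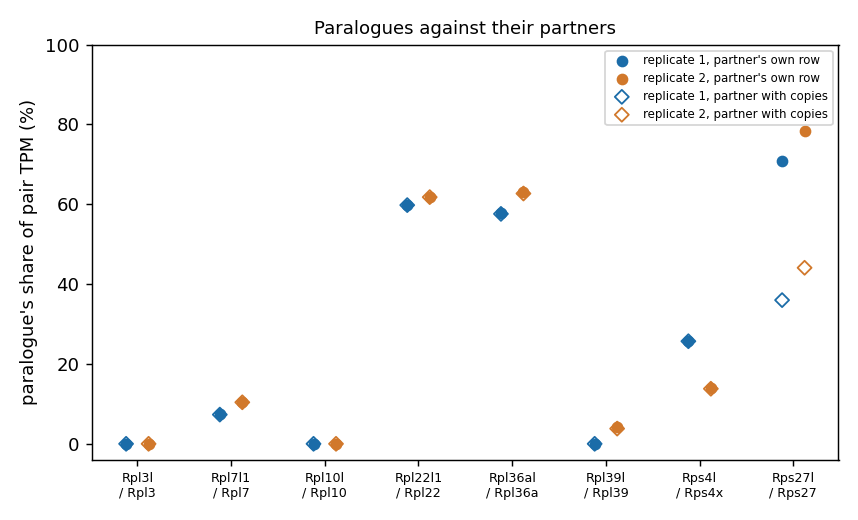
Share of each paralogue in the TPM of itself and its partner (percent, linear axis), for replicate 1 (blue) and replicate 2 (orange), with filled points for the partner's own row and open diamonds for the partner with its copies. Rpl22l1 and Rpl36al lie near 60% either way, while Rps27l falls from 70.8% and 78.3% to 36.0% and 44.1%.

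Ribosomal proteins that the symbol rule does not reach stood at like levels. Fau, a ubiquitin-like fusion of a small subunit protein, had 1037 and 1030 TPM. Rack1, a scaffold on the small subunit, had 1199 and 1408 TPM. These lay within the range of the members' middle part, whose lower quartile was 765 and 807 TPM and whose upper quartile was 1709 and 1660 TPM.

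The libraries were compared by log2((TPM + 1) in replicate 2 / (TPM + 1) in replicate 1), from which the median over all genes of mean TPM 10 or more was subtracted. This scale understates gaps of low genes. No test is possible with 1 library per replicate, and 2-fold is a rule of size. Of the 82 members with that mean level, 3 lay past 2-fold, where 51.1% of the 6801 genes did. Rpl39l (log2 5.14) and Rpl27a (1.71) were higher in replicate 2, a direction that 25.2% of all genes took. Rpl5 (log2 -1.39) was higher in replicate 1, as 25.8% of all genes were. The median absolute log2 ratio was 0.219 for members and 1.03 for all genes. Signed, the median was 0.0865 for the large and -0.00556 for the small subunit. Rpl39l, at 0 TPM in replicate 1, passed the mean of 10 only through replicate 2. Its place past 2-fold therefore followed from the filter. The filter also admits other genes at 0 in 1 library, which enters the shares of all genes. With no filter, 15.3% of 43346 genes lay past 2-fold, and their median absolute log2 ratio was 0.

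The gaps were also set beside those of other genes of like level. Between 10 and 100 TPM, the 2 members Rpl5 and Rpl39l had a median absolute log2 ratio of 3.27 and 4982 other protein-coding genes one of 1.38. Between 100 and 500 TPM the median was 0.296 for 10 members and 0.565 for 1110 other protein-coding genes. Between 500 and 1000 it was 0.256 for 21 members and 0.235 for 122 others. From 1000 TPM upward it was 0.180 for 49 members and 0.207 for 81 others. So at 500 TPM and above, where 70 of the 82 members lie, members and other genes of like level had similar gaps between the libraries. Across the 77 members without paralogues, log2(TPM + 1) in both libraries had a Pearson r of 0.920 and a Spearman rho of 0.918, a description over genes that share both libraries. With copies added, r was 0.863 and rho 0.833. Over 1313 other protein-coding genes whose mean TPM reached 100, r was 0.742 and rho 0.608. Of those, 1110 lay between 100 and 500 TPM, while 70 of the 82 members lie at 500 and above. These correlations are therefore not matched for level.

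**Figure D4:**
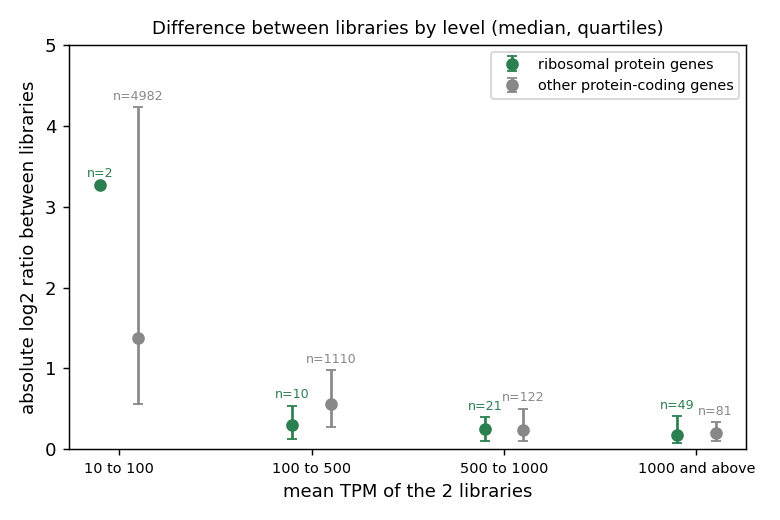
Median absolute log2 ratio between the libraries (linear axis) in bins of mean TPM, for members (green) and other protein-coding genes (grey), with bars from the lower to the upper quartile where a bin holds at least 5 genes. At 500 to 1000 TPM the medians are 0.256 and 0.235 and from 1000 TPM upward 0.180 and 0.207.

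Adding copies altered both Rpl5 and Rpl27a. The log2 ratio of Rpl5 went from -1.39 to 0.15 and that of Rpl27a from 1.71 to 0.91, which left Rpl39l as the single member past 2-fold. Among other members the largest gaps in favour of replicate 2 were those of Rps21 (614 and 1010 TPM, log2 0.69), Rpl37 (0.53) and Rpl36 (0.49). In favour of replicate 1 they were those of Rpl7 (2150 and 1387 TPM, log2 -0.66), Rpl27 (-0.65), Rpl19 (1709 and 1115 TPM, -0.64) and Rps7 (-0.64). None of these reached 2-fold. The spike-ins had a median log2 ratio of 0.418 before centring and the genes one of 0.0252, and centring on the spike-ins put 8 members past 2-fold, where 52.9% of the 6801 genes then lay. Rpl39l and Rpl27a were then higher in replicate 2, and 6 members, among them Rpl5, Rpl7, Rpl27, Rpl19 and Rps7, in replicate 1. The members' signed median was -0.358 by the spike-ins and 0.0352 by the genes.

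**Figure D5:**
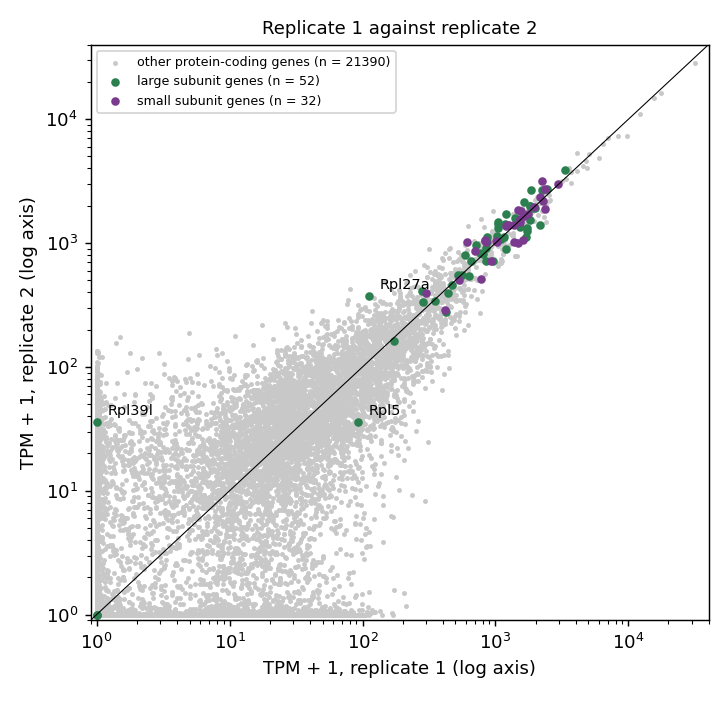
TPM + 1 in replicate 1 (horizontal) and replicate 2 (vertical), both on log axes, for large subunit genes (green), small subunit genes (purple) and other protein-coding genes (grey), with the line of equality. The members lie near the line at the upper right, apart from Rpl27a, Rpl5 and Rpl39l, which are named in the plot, and Rpl3l and Rpl10l, which lie at the lower left corner with 0 TPM in both libraries.

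Marker lists of cell types were compared between the libraries in the same way, beside 25.2% of all genes past 2-fold toward replicate 2 and 25.8% toward replicate 1. Counts are over markers of mean TPM 10 or more and sums over the whole list. A marker near 0 in 1 library passes that mean only through the other, so its direction past 2-fold follows from the filter. This holds for heart markers Myl7 (0 and 93.5 TPM), Myl2 (0 and 36.5) and Tnnt2 (0.07 and 36.3). It also holds for macrophage marker Csf1r (23.5 and 0 TPM). Mesenchymal markers summed to 203 and 479 TPM, with 3 of 5 past 2-fold toward replicate 2. Heart markers summed to 50.2 and 235 TPM, with 4 of 5 past 2-fold toward replicate 2. Macrophage markers summed to 426 and 163 TPM, with 3 of 4 past 2-fold toward replicate 1. Endothelial markers summed to 73.1 and 69.6 TPM, with 0 of 2 past 2-fold. Hepatoblast markers summed to 11920 and 10450 TPM, with 1 of 8 past 2-fold, toward replicate 1. Erythroid markers summed to 92180 and 83250 TPM, with 1 of 10 past 2-fold in each direction. The part of these cell types in the gaps of ribosomal protein genes was not tested. The members' share of TPM was 10.04% and 10.46%.

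Other genes known for TOP mRNAs, translation factors among them, were taken as a list of 16. All 16 reached a TPM of 1 in each library. Their median was 479 and 514 TPM, against 1125 and 1114 for the members. Eef1a1, the elongation factor that delivers tRNA, was highest at 4090 and 3846 TPM. Of the 16, 1 lay past 2-fold in each direction. Eif4b, an initiation factor, had 28.4 and 86.8 TPM (log2 1.55). Eef2, the translocation factor, had 466 and 224 TPM (log2 -1.08).

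Each gene's main transcript was the same in both libraries for most members. Of 60 members of mean TPM 10 or more with at least 2 annotated transcripts, 55 kept the transcript of highest TPM, against 62.4% of 4448 genes. From a mean TPM of 100 upward, 54 of 59 members did, against 85.7% of 999 other protein-coding genes. The transcript differed for Rpl23, Rpl27, Rpl29, Rpl38 and Rps18. In Rpl29, the transcript that led in replicate 1 held 70.9% of the gene there and 33.2% in the other library. In Rpl23, a coding transcript held 53.1% and 32.6%, and a transcript annotated as processed, without a reading frame, held 43.1% and 66.5%. In Rps18 the top transcripts were near-equal in replicate 2, at 46.8% and 47.0%. In 3 members the top transcript was non-coding by annotation in both libraries. These were Rps20, whose retained-intron transcript held 93.4% and 91.9%, Rpl35, whose processed transcript held 90.4% and 89.9%, and Rpl12, whose transcript marked for nonsense-mediated decay held 62.7% and 74.2%.

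The members were also described by their place in the genome. They lay on 19 chromosomes, with 14 on chromosome 7, 8 on chromosome 17 and 7 each on chromosomes 9 and 11. The share of all genes on each chromosome was not computed, so these counts do not show whether members cluster. Detected members were compact genes, with a median span of 3.29 kb against 19.7 kb for other protein-coding genes of mean TPM 10 or more. A row for a small nucleolar RNA, the guide RNAs that direct modification of ribosomal RNA and are often cut from introns, lay inside 30 of the 84 members on the same strand. Of the other protein-coding genes of mean TPM 10 or more, 1.94% held one. Those 58 rows had few reads, 283 in replicate 1 and 54.8 in replicate 2, and 9 had any read. RNA below the size limit was not kept by the extraction, so these reads do not measure the small RNAs. Over the 77 members without paralogues, effective length and level were weakly related, with a Pearson r of -0.205 and a Spearman rho of -0.186, a description over genes of shared libraries.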

How the data were processed

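RNA levels were read from a gene table and a transcript table per library. The deposited expected counts are estimated reads per row and need not be whole. The deposited TPM values are expected counts per effective length, scaled so that all rows reach a fixed sum, spike-ins included. The deposited credibility bounds are a signal of the same unit, and the deposited percent values give each transcript's part of its gene. Per the labels, the assembly is mm10, and per the file headers the columns hold estimates with posterior means. The annotation of the tables is GENCODE M4, per the deposited notes. For the aligner, quantification program and strand setting: not given in the sources used here.

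Symbols, types and coordinates came from GENCODE M21, matched by identifier for 42462 of 43346 gene rows, with 884 unmatched. Copies were found with blastn 2.17.0 on M21 transcripts, with miRNA and snoRNA rows left out. Calculations used Python 3.11.15, numpy 2.4.6 and pandas 2.3.3, and the ratio script was tested on simulated data. Values are given per library or as mean ± SD (n = 2). There is 1 group, so no p-value was computed, and the spread between 2 libraries may be technical in part. The members and gene lists were chosen with earlier results of these data known, and the definition of a copy after seeing the data. Named genes were the 5 highest and 5 lowest of each subunit, members under a TPM of 1, paralogue pairs, the 5 largest ratios each way, the 5 widest credibility intervals, members with differing main transcripts, the 5 with the highest named pseudogenes, and the stalk. Other members were named for their copies after their values were seen. Alternatives changed the estimate, pseudocount, filter, centring and set of rows. Protein sequences were not used here, and some genes are not reported here by name.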

Additional observations from a re-analysis of the deposited data

How the results depend on the processing

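Across 14 results and 81 alternative values, 60 stayed within a limit set for each result and 21 moved further. The limit was the SD between the libraries, or for counts 1.5 times. For the median absolute log2 ratio it was 0.169, taken from the quartiles over members. With 2 libraries, leaving either one out stays within the SD by arithmetic, so those values could not move and say nothing about stability. Alternatives with sequence copies were chosen after seeing the data. The share of TPM (10.25%) was 5.637% by expected counts, 10.99% over gene rows alone, 9.949% without paralogues, 11.26% with rows named as pseudogenes and 12.95% with copies. The large to small ratio of medians was 0.8597 with copies and 0.8115 with the copies' reads at member length, and the summed ratio 1.383 and 1.319. The count of members past 2-fold (3) was 8 centred on spike-ins and 1 with copies. The median absolute log2 ratio was 0.3969 centred on spike-ins. By expected counts, which favour long rows, Rpl7l1 held 27.41% of its pair and Rps27l 88.2%. With copies of Rps27 added, Rps27l held 40.04%, so the higher gene of that pair changed. Rows named as pseudogenes held 9.935% of the members' TPM, or 9.81% by posterior mean TPM and 6.811% by expected counts. Sequence matches held 26.55% in all, 26.4% on the same strand without short RNAs, 26.25% at 98% identity and 16.96% by expected counts. Leaving out either library gave 10.04% to 10.46% for the share, 0.7527 to 0.7904 and 1.273 to 1.302 for the ratios, and 9.923% to 9.946% for named pseudogenes. It gave 7.356% to 10.43% for Rpl7l1, 59.85% to 61.82% for Rpl22l1, 57.85% to 63.11% for Rpl36al, 0% to 4.139% for Rpl39l, 13.89% to 25.84% for Rps4l and 70.78% to 78.32% for Rps27l. No paired analysis was possible because both libraries belong to 1 group. The low input and PCR limit all levels in ways that 2 libraries cannot separate from biology.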
